A study of Mus musculus with 6 samples.

Results

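Solute carriers (gene symbols beginning Slc, among them the organic anion transporting polypeptides, Slco) and ATP-binding cassette (ABC) transporters were followed in the liver of APC fl/fl mice with hepatocellular carcinoma (HCC) and of APC +/+ mice without tumour. The genes were taken from the table of normalised values that the authors deposited, by converting the mRNA accession of each probe into a mouse RefSeq gene symbol and keeping the symbols that begin with Slc or Abc. This gave 45 genes, measured by 48 probes, of 2114 genes that could be named in the table, and RefSeq lists 439 protein-coding genes with such symbols. The table is preselected. Per the study's methods it holds probes that differed at least 2-fold between these same groups at an unadjusted p of at most 0.05, so the 45 genes had to differ, and neither their number nor their directions support anything about transporters. The other Slc and Abc genes carry no name in the files used here and are not analysed here.

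RNA from the liver of C57Bl/6 mice aged 12 months was profiled on 6 single-colour arrays, 3 of HCC tissue from APC fl/fl mice and 3 of healthy liver from APC +/+ mice. The fl/fl allele is hypomorphic, so that these mice have less Apc in all tissues and without any Cre recombinase. Apc is part of the protein complex that marks β-catenin for destruction, and Apc itself is not analysed here. Tumour and genotype go together in this design and cannot be told apart. Neither sex nor litter is given in the labels.

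Hepatocytes take up bile acids, drugs and other organic anions from the blood through sodium-dependent and OATP-type carriers on the basolateral membrane, and export them into bile through ABC pumps on the canalicular membrane. Solute carriers of other families move amino acids, sugars, metals, lipids and vitamins across the plasma membrane, lysosome, Golgi and mitochondria. In normal liver many of these genes are expressed in zones along the lobule, and Wnt/β-catenin signalling is one of the pathways known to set that zonation.

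The promoters of 6 of the genes are shown, namely the plasma membrane carriers with the largest differences above normal liver among those with a listed promoter (Slc22a12, Slc51b and Slc7a11) and the 3 neighbouring Slco1 genes that were all lower in HCC. Each line gives the 250 bases before the transcription start, 5′ to 3′ on the gene's strand, from RefSeq (GRCm38.p6), and capitals mark matches on either strand to 5 short motifs.
Slc22a12 (chr19:6543071-6543320, minus strand): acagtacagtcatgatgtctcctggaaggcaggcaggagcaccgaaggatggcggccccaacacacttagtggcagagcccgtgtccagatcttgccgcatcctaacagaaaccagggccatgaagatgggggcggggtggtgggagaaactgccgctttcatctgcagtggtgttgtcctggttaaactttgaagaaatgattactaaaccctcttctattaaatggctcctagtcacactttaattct
Slc51b (chr9:65422774-65423023, minus strand): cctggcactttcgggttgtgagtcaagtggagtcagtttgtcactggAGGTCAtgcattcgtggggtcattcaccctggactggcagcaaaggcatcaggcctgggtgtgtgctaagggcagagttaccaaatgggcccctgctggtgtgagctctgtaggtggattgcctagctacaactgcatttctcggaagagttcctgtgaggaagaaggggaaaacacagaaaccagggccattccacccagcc
Slco1b2 (chr6:141629268-141629517, plus strand): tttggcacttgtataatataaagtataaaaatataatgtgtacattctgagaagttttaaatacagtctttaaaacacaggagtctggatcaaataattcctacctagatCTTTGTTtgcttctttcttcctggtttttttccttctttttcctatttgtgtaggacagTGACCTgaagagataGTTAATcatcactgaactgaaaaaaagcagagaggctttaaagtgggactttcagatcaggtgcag
Slco1a4 (chr6:141856221-141856470, minus strand): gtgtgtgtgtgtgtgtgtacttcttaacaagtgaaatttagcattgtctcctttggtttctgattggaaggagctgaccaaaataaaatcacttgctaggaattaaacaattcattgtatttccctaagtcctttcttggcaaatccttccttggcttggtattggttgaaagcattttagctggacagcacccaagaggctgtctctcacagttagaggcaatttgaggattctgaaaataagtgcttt
Slco1a1 (chr6:141946963-141947212, minus strand): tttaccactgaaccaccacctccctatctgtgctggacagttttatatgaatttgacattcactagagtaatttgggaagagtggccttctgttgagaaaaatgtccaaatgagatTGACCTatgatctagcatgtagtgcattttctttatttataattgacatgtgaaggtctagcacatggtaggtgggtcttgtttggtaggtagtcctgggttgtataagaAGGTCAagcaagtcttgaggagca
Slc7a11 (chr3:50443614-50443863, minus strand): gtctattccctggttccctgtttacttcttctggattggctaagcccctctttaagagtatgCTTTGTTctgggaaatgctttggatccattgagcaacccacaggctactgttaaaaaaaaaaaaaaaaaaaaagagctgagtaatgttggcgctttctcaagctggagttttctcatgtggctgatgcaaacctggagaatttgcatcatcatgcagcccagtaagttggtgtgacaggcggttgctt

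The motifs searched included CTTTGAT and CTTTGTT, 2 forms of the site bound by the TCF/LEF factors of the Wnt pathway. Other forms of that site, such as CTTTGAA, were not searched. The other motifs were GTTAAT, the core letters of the hepatocyte factor HNF1, TGACNNNGC, the core of the antioxidant response element, and AGGTCA, the core letters of many nuclear receptor sites. TGACNNNGC and the reverse complement of AGGTCA can overlap. The promoter of Slc22a12 and that of Slco1a4 held none of the 5 motifs searched within this window, though that of Slc22a12 holds the letters CTTTGAA. That of Slc51b held AGGTCA 1 time, that of Slco1a1 held it 2 times, and that of Slco1b2 held a match to AGGTCA, another to CTTTGTT and another to the HNF1 core letters. The promoter of Slc7a11 held CTTTGTT. RefSeq promoters were at hand for 36 of the 45 genes, with 49 promoters in all. CTTTGAT lay in 4.08% of these against 3.21% of all 32851 promoters, CTTTGTT in 4.08% against 5.03%, GTTAAT in 4.08% against 6.43%, TGACNNNGC in 14.3% against 10.2% and AGGTCA in 26.5% against 14.0%. These shares are descriptions of the letters, and no difference between them was tested.

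The 6 arrays had no saturated probe spot and a median processed intensity of 38.9 to 61.8. HCC replicates 1 and 2 differed by less than the scanner noise (mean chi-square per probe 0.774 over 29685 probes, against 14.9 and 15.1 for replicate 3) and were counted as 1 sample, so that 2 HCC samples stood against 3 normal livers. Normal replicates 2 and 3 were close as well, at 1.99. The 3 HCC arrays and normal replicate 1 lay in slide row 1 and the other normal arrays in row 2. Probes well above background made up 70.7% to 76.5% on the HCC arrays and 50.8% to 82.8% on the normal arrays. Nothing in the labels ties an array to a numbered animal, so the spread between arrays may be in part technical. In bulk tissue, fewer cells of a type and less RNA per cell cannot be told apart. Of the marker lists, 3 of 8 hepatocyte genes were named in the same preselected table (Apoa1, Cebpa and Cps1), and the log2 of their summed intensity was 14.9 to 16.0 in HCC and 17.0 to 17.7 in normal liver. The cholangiocyte list was named through 1 of 5 genes (Spp1, 12.9 to 14.4 against 7.90 to 9.12), the stellate cell list through 1 of 5 (Lrat, 5.01 to 6.48 against 7.22 to 7.59), the endothelial list through 1 of 4 (Pecam1, 5.46 to 6.35 against 7.34 to 7.69) and the Kupffer cell and leukocyte list through 2 of 6 (Adgre1 and Cd74, 12.1 to 13.6 against 10.9 to 11.6). The sums follow the brightest probes, here Cd74 for leukocytes and Apoa1 and Cebpa for hepatocytes, and hardly reflect Adgre1 or Cps1. Some HCC values of Lrat and Pecam1 lay near the background. The part of these cell types in the transporter values was not tested.

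Of the 45 genes, 26 were higher and 19 lower in HCC, with a median log2 difference of 1.13 and a range from -2.95 for Abcc3 to 6.60 for Slc22a12. Levels and differences are on the authors' normalised log2 scale unless a fit is named, where 1 unit is a doubling, and the HCC mean is that of the 2 samples. The HCC and normal arrays did not overlap for any of the 45 genes, all 3 HCC arrays lying above the normal ones for 26 and below for 19. Over the 45640 tested probes of the array the HCC arrays lay all above in 17.4% and all below in 16.4%. In the limma fit over these probes 11 of the 45 genes reached at least 2-fold with an adjusted p below 0.05, 7 higher and 4 lower, where 1.92% of all tested probes did, 1.03% higher and 0.896% lower. At the threshold of the study's methods (2-fold, p not adjusted), 24 were higher and 18 lower, beside 5.36% and 5.85% of tested probes. The adjusted count was 33 with the 6 arrays taken as 6 samples. It was 0 by limma without any single normal liver. There 36 to 39 genes passed the methods' threshold, by which the table was selected. Since the table was selected on this contrast, nothing is read from these counts against their background.

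The split was that of the table as a whole. Higher genes made up 57.8% of the transporters and 57.7% of all 2114 named genes, and the median size of the difference was 1.72 against 1.52 on the log2 scale. A difference of 4-fold or more was seen for 19 transporters, 10 higher and 9 lower, and was not counted over the whole table. At the other end, the genes nearest to the table's 2-fold limit over all 6 arrays were Slc26a6 at 1.03, Slc44a1 at -1.11 and Slc25a34 at -1.12. With HCC replicates 1 and 2 counted as 1 sample, 3 genes lay under 2-fold, namely Slc25a34, Slc44a1 and Slc9a3r2. All 45 genes entered the fit, and 40 were well above background on all 6 arrays. The other 5 missed it on 1 array, a normal one for Slc22a12, Slc6a19, Slc7a11 and Slc35a2 and an HCC one for Abcc3. The narrowest gaps between the lowest array of the higher group and the highest array of the lower group were 0.21 for Abcd4, 0.28 for Slc44a1 and 0.30 for Slc9a3r2.

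**Figure D1:**
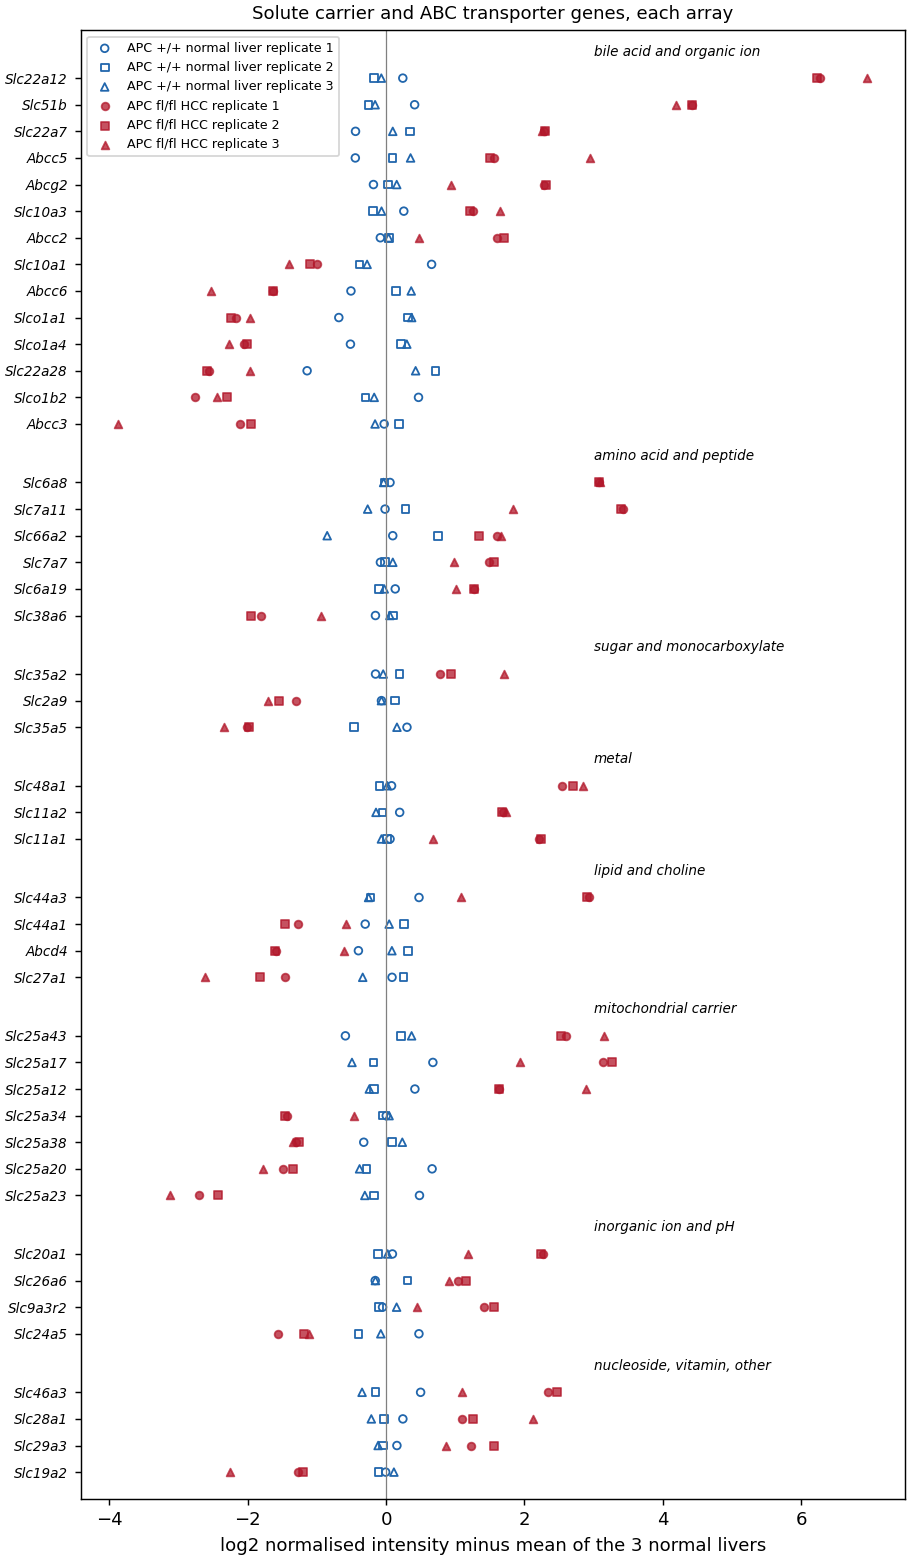
Each of the 45 genes in each of the 6 arrays, as normalised log2 intensity minus the mean of the 3 normal livers, grouped by substrate. Filled red symbols are APC fl/fl HCC and open blue symbols APC +/+ normal liver, with the symbol's shape giving the replicate number. The red and blue symbols of a gene do not overlap, which the selection of the table favours, and red triangles (replicate 3) stand apart from the other red symbols in many rows.

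Slc22a12, which encodes the urate exchanger URAT1 of the kidney tubule, showed the largest difference of all 45 genes. Its level was 10.90, 10.86 and 11.58 on the HCC arrays and 4.87, 4.46 and 4.56 on the normal arrays. The HCC arrays were all far above the normal ones and replicate 3 was the highest. The mean was 11.23 ± 0.49 (SD, n = 2 samples) in HCC and 4.63 ± 0.22 (SD, n = 3) in normal liver, a log2 difference of 6.60 or 97.1-fold, and the fitted difference of 6.35 ± 0.30 (SE) had an adjusted p of 0.0125 by limma. All 3 normal arrays lay under the brightest of the 20 negative-control probes (5.12 to 5.69 per array on the scale of the fit, which sits about 0.516 below the authors' scale), and 1 of them was not called above background, so that the size of the fold rests on signal near the background. With normexp background correction the fitted difference was 4.28. None of the 8 kidney tubule markers on the list used here was named in the table.

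The bile acid and organic ion group was the largest, with 14 of the 45 genes, 7 higher and 7 lower. It held 14 of the 74 RefSeq genes placed in that group. Its median log2 difference was -0.08. Of its 14 genes, 4 passed the adjusted threshold.

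Among the higher genes, Slc51b encodes the beta subunit of the organic solute transporter, which carries bile acids out across the basolateral membrane. Slc51b measured 12.91, 12.91 and 12.68 on the HCC arrays and 8.90, 8.24 and 8.33 on the normal arrays. Its mean was 12.79 ± 0.16 (SD, n = 2 samples) in HCC and 8.49 ± 0.36 (SD, n = 3) in normal liver, a 19.7-fold difference (log2 4.30, adjusted p 0.0137), with the arrays of each group close together. Slc22a7 encodes OAT2, a sinusoidal organic anion carrier of hepatocytes. Slc22a7 measured 15.05, 15.07 and 15.02 on the HCC arrays and 12.33, 13.12 and 12.87 on the normal arrays, so that the HCC arrays were nearly equal while the normal arrays ranged more widely (log2 2.27, adjusted p 0.0388). Abcc5, an exporter of organic anions and cyclic nucleotides, differed by 2.24, and its other probe by 1.34. Replicate 3 was the highest HCC array at the first Abcc5 probe and the lowest at the other. Abcg2, the exporter BCRP, which moves urate and many drugs, differed by 1.62. Slc10a3, a family member of the bile acid carriers without a well-defined substrate, differed by 1.44, and Abcc2, the canalicular pump MRP2 for conjugated bilirubin and other conjugates, by 1.07. None of these last 4 genes passed the adjusted threshold. Without HCC replicate 3 the fitted difference went from 2.16 to 1.44 for Abcc5, from 1.70 to 2.43 for Abcg2 and from 1.05 to 1.65 for Abcc2.

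Of the lower genes of the group, Slco1b2 passed the adjusted threshold at the brightest probe and the other 6 did not. Slco1a1, a hepatocyte OATP that takes up bile acids, steroid conjugates and drugs, measured 8.57, 8.50 and 8.77 on the HCC arrays and 10.06, 11.05 and 11.11 on the normal arrays. The HCC arrays lay together, and normal replicate 1 sat about midway between them and the other normal arrays. The mean was 8.65 ± 0.17 (SD, n = 2 samples) in HCC and 10.74 ± 0.59 (SD, n = 3) in normal liver, a log2 difference of -2.09, and the fitted difference of -2.02 ± 0.39 (SE) had an adjusted p of 0.079. Against normal replicate 1 alone, the only control in the same slide row, the fitted difference was -1.32.

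Slco1b2, the mouse counterpart of the human liver OATP1B carriers, measured 6.49, 6.97 and 6.81 on the HCC arrays and 9.73, 8.96 and 9.09 on the normal arrays. Its HCC arrays were all more than 4-fold below the mean of the normal ones (log2 -2.49, adjusted p 0.0375). Slco1a4, another OATP of the same family, differed by -2.15 (adjusted p 0.0536). Slco1b2, Slco1a4 and Slco1a1 lie in that order on chromosome 6 between Slco1c1 and Slco1a6, with 1 predicted gene, Gm5724, between the first and second of them. All 3 were lower in HCC, and Slco1c1 and Slco1a6 are not named in the table. Normal replicate 1 was the lowest normal array for Slco1a1 and Slco1a4 and the highest for Slco1b2.

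Slc22a28, a rodent gene of the organic ion transporter family, measured 11.03, 11.003 and 11.62 on the HCC arrays and 12.45, 14.30 and 14.02 on the normal arrays. Normal replicate 1 stood far below the other normal arrays, and the log2 difference of -2.27 (fitted -2.39) became -1.19 in the fit against that array alone and -2.99 without it. Abcc3, the basolateral export pump MRP3, measured 5.20, 5.37 and 3.45 on the HCC arrays and 7.29, 7.51 and 7.16 on the normal arrays. HCC replicate 3 was the lowest array, all 3 HCC arrays were under the brightest negative-control probe, and the log2 difference of -2.95 did not pass the adjusted threshold (adjusted p 0.0754). The fitted Abcc3 difference was -1.05 with normexp background correction, where it did pass, and -1.96 without HCC replicate 3. Abcc6, known from the calcification disorder pseudoxanthoma elasticum and expressed chiefly in liver, differed by -2.08.

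Slc10a1, the sodium-taurocholate cotransporter NTCP and the main bile acid uptake carrier of hepatocytes, was read by a pair of probes that differed in size of change. At the brighter probe the log2 difference was -1.23 (adjusted p 0.195). The fitted one was -1.90 with slide row as a block, -0.78 with scaling to the 75th percentile and -0.90 without normal replicate 1. At the other probe the log2 difference was -3.43 (adjusted p 0.0244). That probe measured 7.65, 7.56 and 6.64 on the HCC arrays and 10.53, 10.48 and 10.64 on the normal arrays. Both pointed the same way, and the normal arrays were much closer to each other at the second probe. The probes were designed on different transcript records, and the cause of the gap was not tested.

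**Figure D2:**
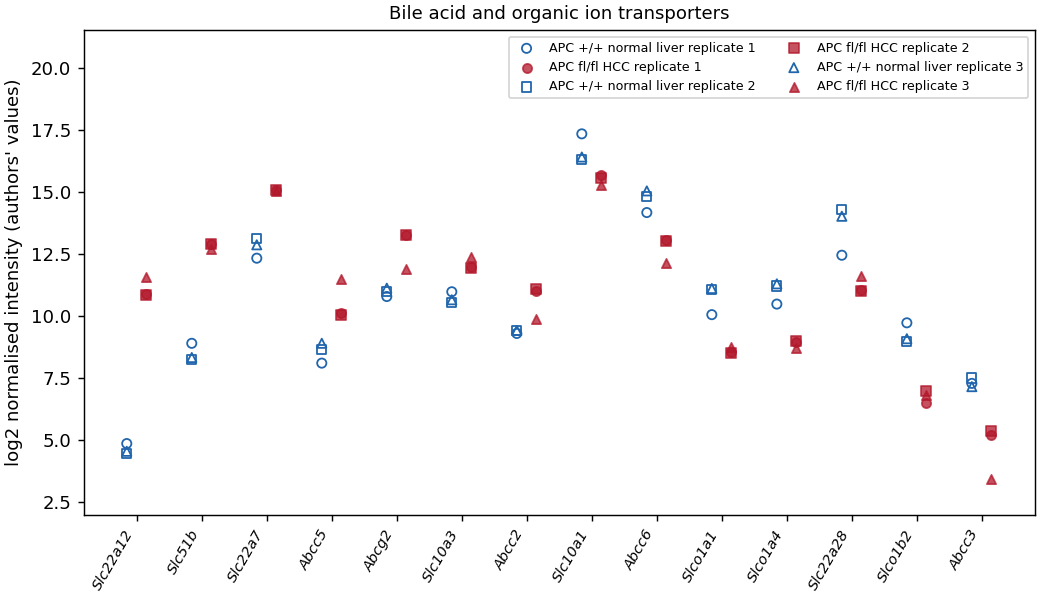
Normalised log2 intensity of the 14 bile acid and organic ion genes on each array, normal liver in open blue and HCC in filled red, ordered by the difference. The HCC arrays of Slc22a12 lie at 10.86 to 11.58 and its normal arrays at 4.46 to 4.87, whereas levels of different genes come from different probes and cannot be set against each other.

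Of the amino acid and peptide group, 6 of 69 RefSeq genes were in the table, 5 higher and 1 lower, with a median of 1.41. Slc6a8, the creatine transporter, measured 9.35, 9.34 and 9.37 on the HCC arrays and 6.33, 6.25 and 6.23 on the normal arrays. The arrays of each group were almost equal (log2 3.09, adjusted p 0.0137). Its other probe differed by 3.19 with an adjusted p of 0.0885, normal replicate 1 reading far below the other normal arrays there. With normexp background correction the fitted difference of the first probe went from 2.85 to 1.97. Slc7a11, the cystine and glutamate exchanger xCT that supplies cysteine for glutathione, measured 8.83, 8.80 and 7.23 on the HCC arrays and 5.39, 5.68 and 5.14 on the normal arrays. HCC replicate 3 lay closer to normal liver than the other HCC arrays, and all 3 normal arrays were under the brightest negative control. The Slc7a11 difference of 2.62 had an adjusted p of 0.0768, and its fitted value of 2.48 became 1.42 with normexp and 3.20 without HCC replicate 3.

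Slc66a2, a membrane protein of the PQ-loop family, measured 7.03, 6.77 and 7.08 on the HCC arrays and 5.53, 6.19 and 4.58 on the normal arrays. Its normal arrays spread more widely than its HCC arrays, and the difference was 1.56. Of its normal arrays, 2 were under the brightest negative control. With normexp the fitted difference went from 1.52 to 0.68. Slc7a7, the light chain of a cationic amino acid exchanger, and Slc6a19, the neutral amino acid carrier B0AT1 known from gut and kidney, differed by 1.25 and 1.14. All 6 arrays of Slc6a19 lay under the brightest negative control, and its fitted difference went from 1.12 to 0.25 with normexp. The lower gene was Slc38a6, of the sodium-coupled neutral amino acid transporter family. Slc38a6 measured 8.94, 8.80 and 9.82 on the HCC arrays and 10.60, 10.85 and 10.81 on the normal arrays, a difference of -1.41 with HCC replicate 3 nearest to normal liver.

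The sugar and monocarboxylate families had 3 of 71 RefSeq genes in the table, with a median of -1.57. Slc2a9 belongs to the glucose transporter family and is known mainly as the urate carrier GLUT9 of liver and kidney. Slc2a9 measured 7.11, 6.86 and 6.70 on the HCC arrays and 8.34, 8.54 and 8.34 on the normal arrays, with little spread in either group (log2 -1.57, adjusted p 0.0466). The Slc2a9 call was not stable. Its fitted difference went from -1.44 to -0.94, under 2-fold, with normexp. The limma adjusted p was 0.0517 with scaling to the 75th percentile and 0.0589 without HCC replicate 2. Slc35a5, of the nucleotide sugar transporter family, measured 5.46, 5.49 and 5.13 on the HCC arrays and 7.77, 7.01 and 7.63 on the normal arrays (log2 -2.17, adjusted p 0.0478). Its HCC arrays were all under the brightest negative control, and with normexp background correction the fitted difference was -0.999. Slc35a2, which brings UDP-galactose into the Golgi, measured 5.65, 5.80 and 6.57 on the HCC arrays and 4.72, 5.06 and 4.83 on the normal arrays, a difference of 1.28. The 3 normal arrays of Slc35a2 and 2 of its HCC arrays were under the brightest negative control. The fitted difference of Slc35a2 went from 1.26 to 0.50 with normexp.

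All 3 metal transporters of the table, of 41 in RefSeq, were higher in HCC, with a median of 1.71. Slc48a1, the lysosomal haem transporter HRG1, measured 16.29, 16.45 and 16.60 on the HCC arrays and 13.83, 13.65 and 13.77 on the normal arrays. The arrays of each group lay close together (log2 2.74, adjusted p 0.0163). Slc11a2, the iron importer DMT1, measured 11.91, 11.89 and 11.95 on the HCC arrays and 10.42, 10.17 and 10.07 on the normal arrays (log2 1.71, adjusted p 0.0335), and its HCC arrays were nearly equal. Slc11a1, the phagosomal metal transporter NRAMP1 of macrophages, measured 9.81, 9.84 and 8.27 on the HCC arrays and 7.66, 7.61 and 7.53 on the normal arrays. HCC replicate 3 lay much closer to normal liver than the others, and the difference was 1.45 with an adjusted p of 0.216. Its fitted difference went from 1.33 to 2.04 without HCC replicate 3. Of the leukocyte markers beside it, Cd74 measured 13.39, 13.57 and 11.94 on the HCC arrays and Adgre1 7.54, 7.41 and 8.64, so that replicate 3 was the lowest HCC array for the first and the highest for the second. Their part in the Slc11a1 values was not tested.

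The lipid and choline group held 4 of 38 RefSeq genes, 1 higher and 3 lower, with a median of -1.04 and no gene past the adjusted threshold. Slc44a3, of the choline transporter-like family, measured 9.09, 9.06 and 7.24 on the HCC arrays and 6.64, 5.94 and 5.91 on the normal arrays. The difference was 1.99, with replicate 3 nearest to normal liver, and the fitted difference was 1.86 with all arrays, 2.70 without HCC replicate 3 and 1.23 with normexp background correction. Slc27a1, the fatty acid transport protein FATP1, measured 5.23, 4.88 and 4.08 on the HCC arrays and 6.78, 6.94 and 6.36 on the normal arrays, a difference of -2.13. The HCC arrays of Slc27a1 were under the brightest negative control, and the fitted difference was -0.69 with normexp background correction. Abcd4, placed here by its family and known to act in the export of vitamin B12 from the lysosome, measured 10.13, 10.11 and 11.10 on the HCC arrays and 11.32, 12.03 and 11.80 on the normal arrays (-1.11). Slc44a1, the choline transporter CTL1, measured 8.14, 7.95 and 8.83 on the HCC arrays and 9.12, 9.67 and 9.46 on the normal arrays (-0.98). For both, HCC replicate 3 lay nearest to normal liver.

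Of the mitochondrial carrier family Slc25, 7 of 45 RefSeq genes were in the table, 3 higher and 4 lower. Slc25a43, a member without a well-defined substrate, measured 8.61, 8.54 and 9.16 on the HCC arrays and 5.42, 6.23 and 6.38 on the normal arrays (log2 2.86, adjusted p 0.0466), and normal replicate 1 was the lowest array. With normexp background correction its fitted difference went from 2.65 to 1.77. Slc25a17, a carrier of the peroxisome for coenzyme A and related cofactors, measured 11.35, 11.49 and 10.15 on the HCC arrays and 8.89, 8.03 and 7.72 on the normal arrays. HCC replicate 3 and normal replicate 1 lay nearest to the other group, and the difference was 2.57. The fitted Slc25a17 difference was 2.46, against 3.11 without HCC replicate 3 and 1.85 with slide row as a block. Slc25a12, the aspartate and glutamate carrier aralar, measured 8.28, 8.28 and 9.54 on the HCC arrays and 7.07, 6.48 and 6.41 on the normal arrays, a difference of 2.26 with replicate 3 the highest HCC array. Its fitted difference went from 2.08 to 1.48 with normexp.

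Among the lower mitochondrial carriers, Slc25a23, a calcium-dependent carrier of ATP-Mg and phosphate, measured 7.29, 7.56 and 6.87 on the HCC arrays and 10.47, 9.81 and 9.68 on the normal arrays (log2 -2.84, adjusted p 0.039). Its HCC arrays were all more than 4-fold below every normal array, and the fitted difference went from -2.63 to -2.04 with normexp. Slc25a20, the carnitine-acylcarnitine carrier that brings fatty acids into mitochondria for oxidation, measured 7.93, 8.07 and 7.64 on the HCC arrays and 10.09, 9.14 and 9.04 on the normal arrays, a difference of -1.60, with a fitted difference of -1.46, and of -2.10 with slide row as a block. Slc25a38, which imports glycine for haem synthesis, measured 9.24, 9.28 and 9.18 on the HCC arrays and 10.21, 10.62 and 10.77 on the normal arrays, a difference of -1.31 with nearly equal HCC arrays. Slc25a34, without a well-defined substrate, differed by -0.95. The median of the 7 genes was -0.95.

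The inorganic ion and pH group held 4 of 63 RefSeq genes, 3 higher and 1 lower, with a median of 0.99 and none past the adjusted threshold. Slc20a1, the phosphate carrier PiT-1, measured 13.53, 13.50 and 12.45 on the HCC arrays and 11.35, 11.15 and 11.28 on the normal arrays, a difference of 1.72. Slc26a6, an exchanger of chloride, bicarbonate and oxalate, measured 7.30, 7.42 and 7.17 on the HCC arrays and 6.11, 6.57 and 6.11 on the normal arrays (1.001). Slc9a3r2 encodes the scaffold protein NHERF2 and is no carrier, but its symbol met the rule. Slc9a3r2 measured 10.94, 11.09 and 9.97 on the HCC arrays and 9.47, 9.42 and 9.68 on the normal arrays (0.97), and HCC replicate 3 was within 0.30 of the highest normal array. Slc24a5, a potassium-dependent sodium and calcium exchanger known from pigment cells, measured 5.16, 5.53 and 5.601 on the HCC arrays and 7.19, 6.32 and 6.64 on the normal arrays (-1.25), with all HCC arrays under the brightest negative control and a fitted difference that went from -1.21 to -0.57 with normexp.

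Nucleoside, vitamin and other small solute carriers made up 4 of 31 RefSeq genes, 3 higher and 1 lower, with a median of 1.39 and none past the adjusted threshold. Slc46a3, a lysosomal carrier, measured 9.77, 9.90 and 8.52 on the HCC arrays and 7.93, 7.28 and 7.09 on the normal arrays (1.75), and its fitted difference went from 1.60 to 2.21 without HCC replicate 3. Slc28a1, the concentrative pyrimidine nucleoside carrier CNT1, measured 7.64, 7.79 and 8.66 on the HCC arrays and 6.78, 6.51 and 6.33 on the normal arrays (1.65). Replicate 3 was the lowest HCC array for the first and the highest for the second. Slc29a3, the lysosomal nucleoside carrier ENT3, measured 7.89, 8.22 and 7.53 on the HCC arrays and 6.82, 6.62 and 6.55 on the normal arrays (1.13). Slc19a2, the thiamine carrier THTR1, measured 5.07, 5.15 and 4.10 on the HCC arrays and 6.34, 6.24 and 6.46 on the normal arrays (-1.74), with all HCC arrays under the brightest negative control and a fitted difference that went from -1.71 to -0.58 with normexp. The 7 ABC genes of RefSeq placed in no substrate group were not named in the table.

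**Figure D3:**
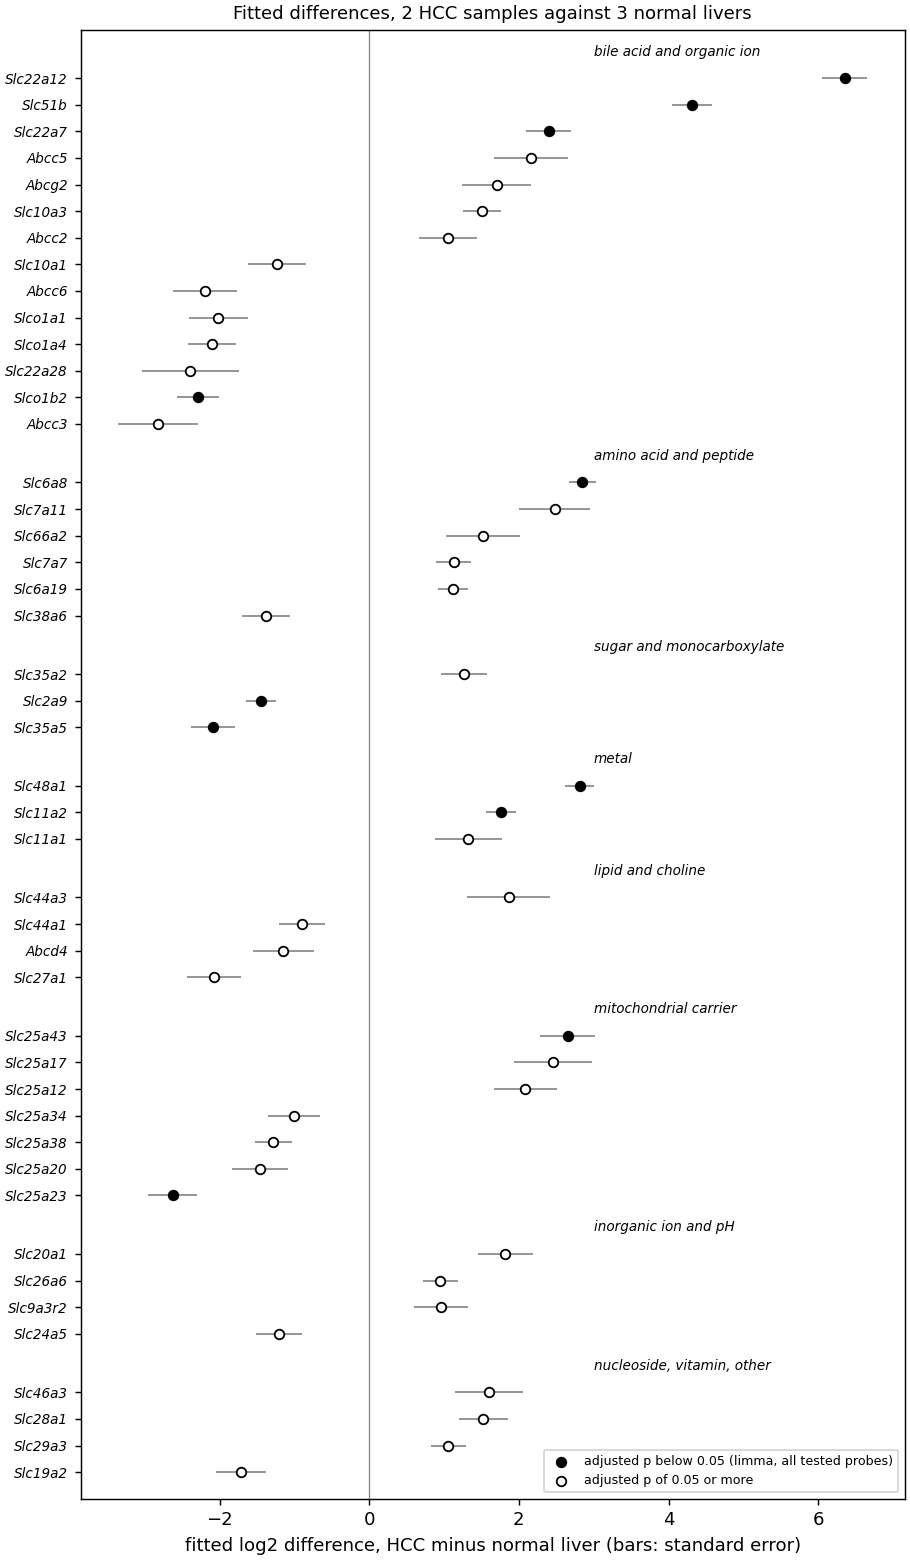
Fitted log2 difference (HCC minus normal liver) of each gene from limma on quantile-normalised scanner values, with bars giving the standard error, for 2 HCC samples against 3 normal livers. The 11 filled points passed an adjusted p below 0.05 over all 45640 tested probes, 7 to the right and 4 to the left of 0.

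The spread within each group was described next. The p-value behind the table also weighs that spread, so probes with widely differing arrays were less likely to enter it. HCC replicates 1 and 2 differed by a median of 0.072 on the log2 scale over the 45 genes, and at most by 0.48. Replicate 3 differed from their mean by a median of 0.61, against 0.62 for all named genes of the table. The difference reached 2-fold for 13 of the 45 genes (28.9%), against 587 of the 2114 named genes (27.8%). It exceeded 2 scanner errors for 30 genes, which was not counted over the table. Over 29685 probes of the array, the mean chi-square per probe of replicate 3 was 14.9 against replicate 1 and 15.1 against replicate 2. The transporters thus varied within HCC to about the same degree as the rest of the table, and with 2 HCC samples this is a description without a test.

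Of these 13 genes, replicate 3 was lower for 11. The genes were Abcc3 (-1.84), Slc44a3 (-1.83), Slc7a11 (-1.58), Slc11a1 (-1.55), Abcg2 (-1.36), Slc46a3 (-1.31), Slc25a17 (-1.27), Abcc2 (-1.17), Slc20a1 (-1.07), Slc9a3r2 (-1.04) and Slc19a2 (-1.01), and 9 of them were genes higher in HCC. Replicate 3 was higher for Abcc5 (1.42) and Slc25a12 (1.26). The other 32 genes differed by less than 2-fold. At any size, replicate 3 was lower for 15 and higher for 11 of the 26 genes higher in HCC. Of the 19 genes lower in HCC it was lower for 11 and higher for 8. These directions were not counted over the rest of the table. Of the 8 named markers, Apoa1, Cebpa, Spp1 and Cd74 were also lower in replicate 3 than in the other HCC arrays, whereas Lrat, Pecam1 and Adgre1 were higher and Cps1 was nearly equal. On the HCC arrays Spp1 measured 14.32, 14.35 and 12.86, Apoa1 15.03, 14.94 and 14.03, and Cebpa 14.87, 14.91 and 13.80. Lrat measured 5.01, 5.19 and 6.48, Pecam1 5.46, 5.57 and 6.35, and Cps1 6.38, 6.49 and 6.50. On HCC replicates 1 and 2, Lrat and Pecam1 thus lay near the brightest negative control (5.65 and 5.56 on the scale of the fit), which limits the size of their differences. The part of these cell types in the replicate 3 values was not tested.

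Among the normal livers, replicate 1 differed from the mean of replicates 2 and 3 by a median of 0.36, as the table did (0.36). The difference reached 2-fold for 3 of the 45 genes (6.67%), against 9.08% of the table. The 3 genes were Slc22a28 (-1.71), Slco1a1 (-1.02) and Slc25a17 (1.01). Slc25a20 and Slc10a1 came close, at 0.997 and 0.987. Against normal replicate 1 alone all 45 genes kept the sign of their difference, and 5 of them lay under 2-fold. The selection of the table favours the kept sign.

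**Figure D4:**
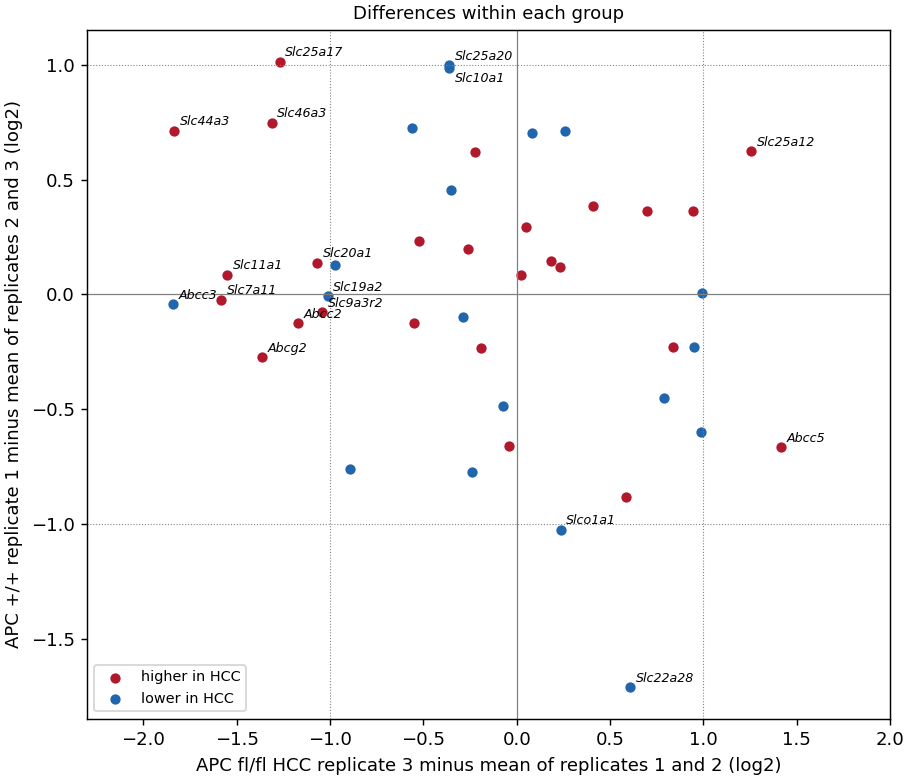
Differences within each group for the 45 genes, HCC replicate 3 minus the mean of HCC replicates 1 and 2 on the horizontal axis and normal replicate 1 minus the mean of normal replicates 2 and 3 on the vertical axis (log2). Red points were higher and blue points lower in HCC, and dotted lines mark a 2-fold difference, beyond which 11 genes lie on the left, 2 on the right, 2 at the bottom and 1 at the top.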

How the data were processed

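Liver RNA of 3 APC fl/fl mice with HCC and 3 APC +/+ mice was hybridised, after rRNA removal and random-primed Cy3 labelling, to Arraystar mouse LncRNA arrays that also carry mRNA probes. The authors extracted the scans with Agilent Feature Extraction (11.0.1.1), and the deposited scanner files give a background-subtracted processed intensity per spot on a linear scale, with error estimates and flags. The authors also deposited a table of log2 values, quantile normalised with GeneSpring GX, of 4197 probes selected at a 2-fold change and an unadjusted p of at most 0.05.

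Accessions of 2239 of 2280 mRNA probes of the table matched a RefSeq symbol (GRCm38.p6). The brightest probe stood for a gene, and genes were grouped by substrate from their family. Control spots, 1200 spots of 20 negative-control probes and flagged outlier spots were left out of the scanner files, log2 processed intensities were quantile normalised over 59631 probes, and the 45640 probes well above background on at least 3 arrays were compared with limma's moderated test (limma 3.58.1 in R 4.3.3, without covariates, two-sided, adjusted by Benjamini-Hochberg), with HCC replicates 1 and 2 averaged. The number of arrays limits the precision. These steps were also tested on simulated data.

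Members, substrate groups, marker lists and motifs were chosen with earlier results of these data known. Every gene was named with its log2 difference. Values on all arrays were given for Slc22a12, Slco1a1 and up to 3 genes each way in a substrate group. Because the scanner files hold median and no mean signals, normexp correction (offset 50) used the median signal. Other alternatives were scaling to the 75th percentile, other filters on dim probes, blocks for replicate number and slide row, eBayes with trend and robust, the methods' t-test and leaving out each array. Deviations of same-numbered arrays were nearly uncorrelated, which with so few arrays cannot decide whether the samples were paired.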

Additional observations from a re-analysis of the deposited data

How the results depend on the processing

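No gene changed direction in any of 850 comparisons of a gene with an alternative, which the table's selection on these same arrays favours. In part of these the direction could not change. Both other filters on dim probes and eBayes with trend and robust leave the fitted difference as it is. The dimmest listed probe does so too, with its call, for genes with 1 probe. Some alternatives also share their differences, namely the slide row block with normal replicate 1 alone, and the t-test and replicate block with 6 arrays. Of the 760 comparisons with an adjusted p, 628 kept their side of the adjusted threshold, 78 lost the call and 54 gained it. All 45 genes kept separate groups with the scanner files normalised anew, an alternative chosen after seeing the data, and with the 75th percentile or normexp. Since the table was selected on these arrays, nothing about the genes is read from the unchanged directions or the separate groups. The number of transporter genes past the adjusted threshold (11) was 4 with no filter on dim probes, 21 of the 40 genes well above background on all 6 arrays, 33 with 6 arrays as 6 samples, and 19 under eBayes with trend and robust. It was 0 by limma with normal replicates 2 and 3 averaged and 0 with slide row as a block. There 38 and 32 genes passed the methods' threshold. The table was selected by that threshold, so nothing is read from the counts of genes passing it. All tested probes past the adjusted threshold (877) were 1651, 277, 1966, 3440, 0, 0 and 1900 with normexp, no filter, the strict filter, 6 arrays, averaged normal replicates, the slide row and trend and robust, and 1629 by the methods' t-test on 6 arrays. Leaving out each array in turn gave 0 to 11 transporter genes past the adjusted threshold, 36 to 43 past the methods' threshold and 0 to 973 probes. The low values came without normal replicate 1, 2 or 3 (0, 1 and 0 probes) and without HCC replicate 3 (361 probes). With the replicate block on 6 arrays, 11 genes and 1075 probes passed. Deviations of same-numbered arrays were nearly uncorrelated (0.06, -0.07 and 0.04), though for numbers 1 and 3 the same number was the best match. With so few arrays, and HCC replicates 1 and 2 nearly alike, this cannot decide whether the numbers pair the samples. Read as a fold, the fitted difference changed by more than 1.5 times for 15 genes with normexp and 9 without HCC replicate 3. The same held for 5 genes with the slide row block and 1 without normal replicate 1. The causes were not tested. Signal near the background limits the size of the differences for the 9 genes with a whole group under the brightest negative control. Taken by the mean of a group, 10 genes lay under it.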
